A study of Mus musculus with 6 samples.

Results

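Interferon-stimulated genes and nucleic acid sensors were followed in primary cardiac fibroblasts of *Tet3* f/f mice, whose *Tet3* alleles are flanked by loxP sites. The set was a list of 54 gene symbols, of which 52 had a row in the table of 22063 genes. *Mx2* had no row under that symbol, and *Ddx58* is an older symbol of *Rigi*, which had one. Of the 52 genes, 51 had enough counts to be tested, and *Ifnb1* had not. The cells had been transduced with an adenovirus for green fluorescent protein (GFP, the control) or for Cre recombinase (CRE, labelled as *Tet3* knockout), and all of them were treated with TGF-β, the cytokine that activates fibroblasts. Each group held 3 libraries of bulk RNA. Neither uninfected cells nor cells without TGF-β were analysed here, so every value belongs to cells that had met both an adenovirus and TGF-β. The study calls its replicates biological, but neither it nor the labels say whether these libraries came from separate cultures or animals, so the p-values measure the spread between these libraries, which may be technical. The question was how the members differed between CRE and GFP, and how far they varied between libraries of the same group.

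Interferon responses begin when sensors meet foreign or misplaced nucleic acid. RIG-I and MDA5 (*Rigi* and *Ifih1*) bind RNA in the cytosol, TLR3 binds double-stranded RNA in endosomes, and cGAS binds DNA and signals through STING. These routes switch on interferon-β, which is secreted, binds the receptor chains IFNAR1 and IFNAR2 and activates a complex that contains STAT2 and IRF9. That complex binds interferon-stimulated response elements in the promoters of antiviral genes, and IRF7, itself induced in this way, amplifies the response. Fibroblasts are a classical source of interferon-β and respond to it strongly.

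RefSeq promoters of the GRCm38.p6 build were available for 40 of the 52 genes. The 250 bases before each start were searched on both strands for GAAANNGAAA, the core of the interferon-stimulated response element, in which overlapping matches were allowed. It was present before 17 of the 40 genes (42.5%), against 3.46% of the 27025 genes with a promoter in that table and 2.98% of its 32851 promoters. A match describes letters only and was not tested as a bound site. The windows below belong to the members with the widest spread between replicates that had a match (*Rsad2*, *Cxcl10*), to members among the highest in level (*Isg15*, *Ifit1*, *Ifit3*, *Irgm1*, *Bst2*), and to *Oas3*, a member higher in CRE. They are written 5′ to 3′ on the strand of the gene, and capitals mark matches to the motif or its reverse complement, with the end of a neighbouring match where it reaches into the window.
Rsad2 (chr12:26456548-26456587, minus strand): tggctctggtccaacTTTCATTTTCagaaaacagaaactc
Cxcl10 (chr5:92349078-92349117, minus strand): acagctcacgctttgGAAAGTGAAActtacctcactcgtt
Isg15 (chr4:156200860-156200899, minus strand): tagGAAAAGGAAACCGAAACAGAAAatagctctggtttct
Ifit1 (chr19:34640789-34640828, plus strand): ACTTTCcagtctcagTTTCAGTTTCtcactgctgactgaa
Ifit3 (chr19:34583392-34583431, plus strand): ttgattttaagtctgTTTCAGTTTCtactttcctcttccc
Irgm1 (chr11:48871421-48871459, minus strand): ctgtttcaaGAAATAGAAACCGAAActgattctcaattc
Bst2 (chr8:71537572-71537611, minus strand): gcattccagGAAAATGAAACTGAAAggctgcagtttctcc
Oas3 (chr5:120777710-120777749, minus strand): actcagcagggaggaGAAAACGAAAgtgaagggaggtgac
The window of *Ifit3b* had the same letters as that of *Ifit3*, and both promoters were 86.2% identical over 218 aligned bases.

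Libraries held between 17002126 and 20343590 counts, at which 3 counts, the upper limit that a count of 0 allows, equal 0.156 to 0.187 CPM (CPM, counts scaled to a common library size; the limit covers counting error only). *Tet3* (ENSMUSG00000034832), the targeted gene, had 64.9, 54.4 and 52.0 CPM in GFP replicates 1, 2 and 3 and 34.5, 35.9 and 33.6 CPM in CRE replicates 1, 2 and 3. No CRE value reached the GFP range, with a log2 difference of -0.72 (SE 0.08) and an adjusted p of 5.36e-05 in edgeR's quasi-likelihood test with Benjamini-Hochberg adjustment. An exact two-sided permutation test gave 0.1, the smallest p that 3 against 3 allows. The 10 fibroblast markers summed to 31223 to 32470 CPM in GFP and 18691 to 20115 CPM in CRE. Of these, 9 were lower, beside 25.7% of all tested genes. In principal components, GFP replicate 1 stood apart from the other libraries on the second component, which carried 10.3% of the variance, and the comparison is given with and without it.

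The members covered a wide range of levels. On the FPKM scale, which accounts for transcript length, the mean over all libraries was highest for *Ifit3* (345), *Isg15* (309), *Bst2* (288), *Irgm1* (268), *Ifit1* (250) and *Ifi44* (191). Most of these encode effectors: ISG15 is a ubiquitin-like modifier, tetherin (*Bst2*) holds budding virus at the cell surface, and IFIT proteins bind viral RNA. The interferon gene itself was close to undetected. *Ifnb1*, which encodes interferon-β, had 3, 3 and 1 raw counts in GFP and 4, 4 and 1 in CRE, at or near the 3-count floor, so a difference was not detectable at this depth. The alpha, kappa and epsilon interferon genes on the pathway list (*Ifna2*, *Ifna4*, *Ifnk*, *Ifne*) and *Ifng* had at most 1 count in any library. *Cgas*, the gene of the cytosolic DNA sensor, was low at a mean of 1.47 FPKM, while the nucleic acid sensor genes *Zbp1* and *Ifi204* had 83.8 and 60.5 FPKM.

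Within the GFP group, the members were lower in replicate 1 than in the other libraries. GFP replicate 1 had the lowest CPM of the 3 GFP libraries for 48 of 51 members (94.1%), compared with 34.7% of all tested genes. It was the lowest of all 6 libraries for 43 members (84.3%), compared with 18.5% of all tested genes. The median member stood at 58.6% of its mean in GFP replicates 2 and 3, a difference of -0.77 on the log2 CPM scale. The exceptions were the receptor chain gene *Ifnar1*, the transcription factor gene *Irf3* and *Ifi27*, at 97.6%, 99.6% and 115% of the mean of the other GFP libraries. Summed over the members, the normalized counts were 5364, 9475 and 9218 CPM in GFP replicates 1, 2 and 3 and 9148, 9464 and 7190 CPM in CRE replicates 1, 2 and 3.

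CRE replicate 3 was also low, by a smaller amount. It was the lowest CRE library for 45 of 51 members (88.2%), compared with 32.3% of all tested genes, and the median member stood at 78.0% of its mean in CRE replicates 1 and 2 (-0.36 in log2 CPM). The exceptions were *Ifnar1*, *Ifnar2*, *Sting1*, *Irf1*, *Ifi27* and *Ccl5*. For 44 members (86.3%) both GFP replicate 1 and CRE replicate 3 were the lowest of their group, compared with 12% of all tested genes. The libraries that were low carry different numbers, and the numbers were not found to pair the samples.

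The members that were lowest in GFP replicate 1 tended to be lowest in CRE replicate 3. Across the 51 members, the deviations of these libraries from the rest of their groups had a Pearson r of 0.775 and a Spearman rho of 0.726, where all 12862 tested genes gave 0.071 and 0.026. These points share the same libraries and are not independent, so the coefficients are a description. A fall of more than 0.5 log2 CPM was seen for 41 members (80.4%) in GFP replicate 1 and for 13 (25.5%) in CRE replicate 3, against 4.84% and 2.87% of all tested genes.

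**Figure D1:**
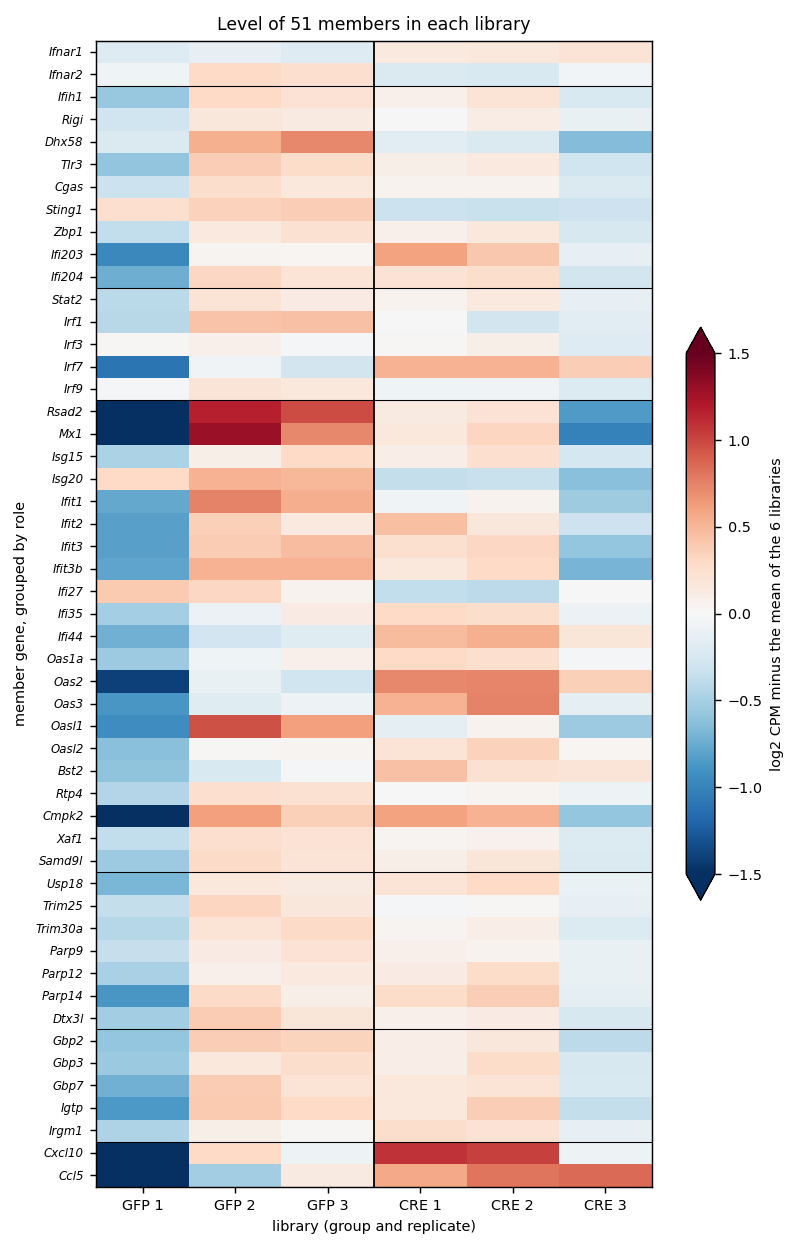
Level of each of the 51 tested members (rows, grouped by role, black lines between roles) in each library (columns), as log2 CPM minus the mean of the 6 libraries of that gene. Blue is below and red above that mean. The column of GFP replicate 1 is blue for most members, and that of CRE replicate 3 is paler blue.

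**Figure D2:**
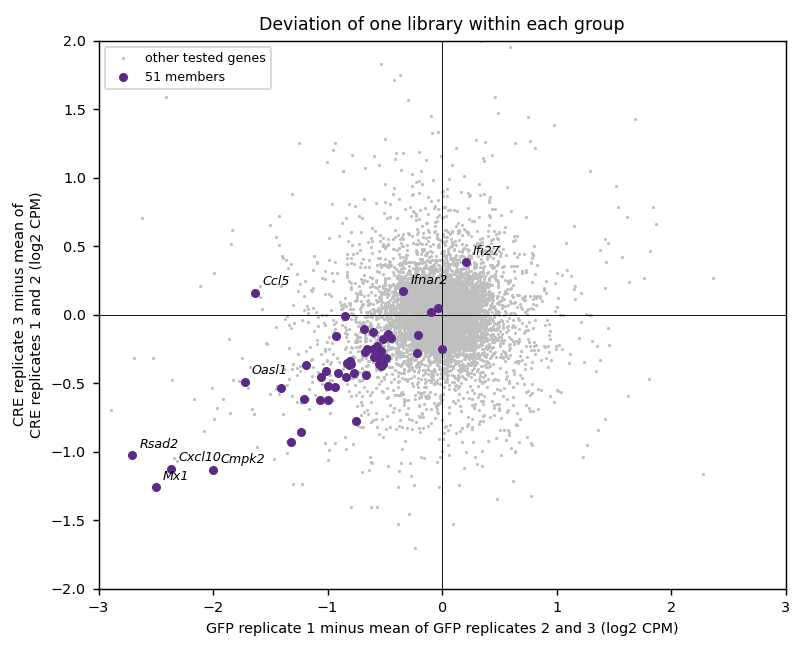
Log2 CPM of GFP replicate 1 minus the mean of GFP replicates 2 and 3 (horizontal axis) against CRE replicate 3 minus the mean of CRE replicates 1 and 2 (vertical axis). Purple points are the 51 members, grey points are other tested genes, and 18 of those lie outside the axes. Most members lie in the lower left quadrant, with *Rsad2*, *Mx1*, *Cxcl10* and *Cmpk2* farthest out.

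The 5 members with the widest spread were *Rsad2*, *Mx1*, *Cxcl10*, *Cmpk2* and *Oasl1*. *Rsad2*, which encodes the radical-SAM enzyme viperin, had 12.7, 89.5 and 78.5 CPM in GFP replicates 1, 2 and 3 and 43.9, 46.3 and 22.1 CPM in CRE replicates 1, 2 and 3. Its GFP replicate 1 value was 15.2% of the mean of the other GFP libraries. *Mx1*, a gene of the family of antiviral dynamin-like GTPases, had 4.04, 28.6 and 19.1 CPM in GFP and 12.9, 14.5 and 5.65 CPM in CRE. For both genes the CRE values lay within the range of the GFP values.

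*Cxcl10*, a chemokine gene that draws T cells, had 11.0, 65.2 and 50.5 CPM in GFP and 112, 108 and 50.5 CPM in CRE. Its CRE replicate 3 value lay within the range of the GFP libraries, below both other CRE libraries. *Cmpk2*, a mitochondrial nucleotide kinase gene next to *Rsad2* on chromosome 12, had 7.71, 34.1 and 28.6 CPM in GFP and 33.8, 31.9 and 14.9 CPM in CRE. *Oasl1*, which encodes an oligoadenylate synthetase-like protein, had 15.4, 57.5 and 45.4 CPM in GFP and 26.6, 30.5 and 20.3 CPM in CRE. The groups overlapped for all 5 of these genes.

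Of the factor genes, *Irf3*, whose constitutive product the sensors activate, varied least within GFP. *Irf3* had 19.5, 20.2 and 18.9 CPM in GFP and 19.4, 20.4 and 16.7 CPM in CRE. *Ifih1*, a sensor gene that is itself interferon-induced, had 113, 205 and 194 CPM in GFP and 176, 193 and 143 CPM in CRE. All 9 sensor and adaptor genes were lowest in replicate 1 of GFP, as were all 5 GTPase genes and all 7 genes for ubiquitin, ISG15 and ADP-ribose enzymes.

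In terms of the within-group SD of log2 CPM, the median member had 0.448 in GFP and 0.211 in CRE. Tested genes of similar level had median SDs of 0.060 and 0.050, and all tested genes 0.097 and 0.086. The SD was above that of genes of similar level for 48 of 51 members in GFP (all but *Ifnar1*, *Sting1* and *Irf3*) and for 49 in CRE (all but *Ifnar1* and *Sting1*). Without GFP replicate 1 the median SD in GFP was 0.070, and without CRE replicate 3 that in CRE was 0.050, so each of these libraries carried most of the spread of its group.

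The comparison between the groups depended on GFP replicate 1, without which 20 of 51 members were lower, beside 25.3% of all tested genes, and the median was -0.22. With all libraries, by edgeR's quasi-likelihood test at an adjusted p under 0.05, 7 of 51 members were higher in CRE, where 25.5% of all tested genes were, and 6 were lower, where 25.7% of all tested genes were. The other 38 did not pass, and the median log2 fold change of the members was -0.00, beside 0.01 for all tested genes. With library size alone as the scaling, which put the median of all tested genes at 0.17, 13 members were higher and 4 lower, beside 43.0% and 16.2% of all tested genes. On log2(FPKM + 1) values in limma 8 were higher and 3 lower, beside 38.1% and 14.7% of all tested genes. All libraries of CRE lay above all of GFP for 6 members (30.0% of all tested genes) and below for 4 (29.6% of all tested genes). Fewer RNA molecules per cell and fewer responding cells cannot be told apart in bulk RNA.

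Of the receptor chains, *Ifnar1* was higher in CRE, and *Ifnar2* was lower under the main scaling. *Ifnar1* (ENSMUSG00000022967, chromosome 16, positions 91485238 to 91507441 of GRCm38, plus strand) had 126, 133 and 126 CPM in GFP and 160, 161 and 166 CPM in CRE. Every CRE library lay above every GFP library, with a log2 difference of 0.34 (SE 0.04) and an edgeR adjusted p of 0.000125. *Ifnar2* had 122, 157 and 151 CPM in GFP and 109.5, 109 and 123 CPM in CRE, and CRE replicate 3 lay just above GFP replicate 1. Its log2 difference of -0.33 (SE 0.09) had an edgeR adjusted p of 0.0105, a call that was lost with library size alone (adjusted p of 0.131) and on log2(FPKM + 1) values in limma (adjusted p of 0.666).

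Of the 9 sensor and adaptor genes, 2 were lower, a share near the 25.7% of all tested genes, none was higher, beside 25.5%, and 7 did not pass. *Sting1* (ENSMUSG00000024349), whose product relays the signal of cGAS, had 51, 54.1 and 55.2 CPM in GFP and 34.1, 33.7 and 34.4 CPM in CRE. It was the steadiest member within CRE, and its groups were well apart, with a log2 difference of -0.65 (SE 0.05) and an edgeR adjusted p of 6.70e-06. *Dhx58*, which encodes the RIG-I relative LGP2, had 26.8, 45.2 and 51.4 CPM in GFP and 27.7, 26.7 and 19.8 CPM in CRE, so that GFP replicate 1 overlapped the CRE libraries. Its log2 difference of -0.74 (SE 0.21) had an edgeR adjusted p of 0.0125, and it did not pass without CRE replicate 3 (adjusted p of 0.0545) or GFP replicate 3 (0.0591), nor on log2(FPKM + 1) values in limma (0.111). *Rigi*, *Ifih1*, *Tlr3*, *Cgas*, *Zbp1* and *Ifi204* had log2 fold changes between -0.10 and 0.09 with all libraries. Without GFP replicate 1 these were between -0.34 and -0.15, with *Ifi204* changing sign from 0.09 to -0.17, and *Tlr3* passed as lower (-0.34, edgeR adjusted p of 0.0169). *Ifi203* had 0.54 (edgeR adjusted p of 0.0812), or 0.29 without GFP replicate 1. It passed as higher without CRE replicate 3 (0.73, adjusted p of 0.0327) and with library size alone (0.71, adjusted p of 0.0267).

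Among the factors that carry the response, *Irf7* was higher and *Irf9* lower. *Irf7* (ENSMUSG00000025498, chromosome 7, positions 141262706 to 141266481 of GRCm38, minus strand) had 132, 271 and 233 CPM in GFP and 406, 405 and 364 CPM in CRE. The lowest CRE library exceeded the highest GFP library, and the group means were 391 ± 23.5 CPM in CRE and 212 ± 72.1 CPM in GFP (SD, n = 3), a ratio of 184%. The log2 fold change was 0.88 (SE 0.20) with an edgeR adjusted p of 0.00383, and it was 0.63 without GFP replicate 1 (adjusted p of 1.68e-05).

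*Irf9*, the DNA-binding part of the STAT complex, had 72.9, 85.1 and 83.3 CPM in GFP and 71.2, 71.7 and 64.5 CPM in CRE. The gap between the groups was narrow, with a log2 difference of -0.22 (SE 0.07) and an edgeR adjusted p of 0.0204, and it did not pass without CRE replicate 3 (adjusted p of 0.0902), GFP replicate 2 (0.0682) or GFP replicate 3 (0.0732), nor with library size alone (0.496). *Stat2*, *Irf1* and *Irf3* did not pass, at log2 fold changes of 0.03, -0.35 and -0.05. These were -0.13, -0.58 and -0.05 without GFP replicate 1, and *Irf1* passed as lower.

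Of the 21 antiviral effector genes, 4 were higher and 2 lower, beside 25.5% and 25.7% of all tested genes, and 15 did not pass. Without GFP replicate 1 the lower count was 9, beside 25.3% of all tested genes, and without CRE replicate 3 the higher count was 6, beside 22.1%. Without GFP replicate 3 it was 7, beside 21.0%. *Oas2* (ENSMUSG00000032690, chromosome 5, positions 120730333 to 120749853 of GRCm38, minus strand), a synthetase of the oligoadenylates that activate RNase L, had 17.1, 41.9 and 36.7 CPM in GFP and 74.5, 74.9 and 57.8 CPM in CRE. All CRE libraries lay above all GFP libraries, with a log2 difference of 1.10 (SE 0.24) and an edgeR adjusted p of 0.00318. The difference was 0.81 without GFP replicate 1. The neighbouring *Oas3*, of the same enzyme family, had 5.16, 8.46 and 9.09 CPM in GFP and 13.8, 16.1 and 8.66 CPM in CRE, and its groups overlapped through CRE replicate 3. Its log2 difference of 0.75 (SE 0.24) had an edgeR adjusted p of 0.0241, but did not pass without CRE replicate 1 (adjusted p of 0.0731) or CRE replicate 2 (0.0986). *Oas1a* and *Oasl2* had 0.34 and 0.36 and did not pass (edgeR adjusted p of 0.0628 and 0.0705), and both had 0.17 without GFP replicate 1. Without GFP replicate 3 both were 0.47 and passed as higher (adjusted p of 0.0222 and 0.0455). Both also passed with library size alone (0.00999 and 0.0132) and without the filter (0.0433 and 0.0474). *Oasl2* passed too without GFP replicate 2 (0.0443) and with the replicate block (0.0324), and *Oas1a* without CRE replicate 3 (0.0370) and on log2(FPKM + 1) values in limma (0.0359). For *Oas1a*, 32.4% of the 150-base windows were shared with another gene, mostly *Oas1g*, so its counts are uncertain.

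*Ifi44* (ENSMUSG00000028037, chromosome 3, positions 151730922 to 151749960 of GRCm38, minus strand), an interferon-induced gene, had 317, 428 and 461 CPM in GFP and 729, 755 and 595 CPM in CRE. The groups did not overlap, and the log2 fold change was 0.78 (SE 0.13) with an edgeR adjusted p of 0.000560. Leaving out GFP replicate 1 gave 0.64. *Bst2* (ENSMUSG00000046718, chromosome 8, positions 71534255 to 71537456 of GRCm38, minus strand) had 144, 188 and 215 CPM in GFP and 297, 257 and 251 CPM in CRE. Here too every CRE library was above every GFP library, with a log2 difference of 0.56 (SE 0.12) and an edgeR adjusted p of 0.00334. That difference was 0.41 without GFP replicate 1.

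The lower effectors were *Isg20* and *Ifi27*. *Isg20* (ENSMUSG00000039236, chromosome 7, positions 78913424 to 78920396 of GRCm38, plus strand), an exonuclease gene, had 18.4, 21.6 and 21.3 CPM in GFP and 11.7, 11.9 and 9.66 CPM in CRE. CRE stood at 54.2% of the mean of GFP, with a log2 difference of -0.89 (SE 0.10) and an edgeR adjusted p of 6.92e-05. *Ifi27* (ENSMUSG00000064215, chromosome 12, positions 103434211 to 103440239 of GRCm38, plus strand) had 46.6, 44.0 and 37.0 CPM in GFP and 27.6, 27.1 and 35.8 CPM in CRE. It was the member whose libraries ran against the rest, highest in GFP replicate 1 and in CRE replicate 3 within their groups, with a log2 difference of -0.49 (SE 0.12) and an edgeR adjusted p of 0.00493.

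*Ifit3*, *Isg15* and *Ifit1*, among the effectors of highest level, did not pass (edgeR adjusted p of 0.857, 0.884 and 0.222). *Ifit3* had 325, 740 and 788 CPM in GFP and 671, 708 and 380 CPM in CRE, a log2 fold change of -0.08 (SE 0.30). *Isg15* had 154, 227 and 262 CPM in GFP and 228, 255 and 178 CPM in CRE, a log2 fold change of 0.04 (SE 0.17). *Ifit1* had 369, 1049 and 916 CPM in GFP and 604, 650 and 432 CPM in CRE, a log2 fold change of -0.47 (SE 0.30). Without GFP replicate 1 these were -0.38, -0.16 and -0.81. In each, with all libraries, the distance between replicates of a group exceeded the distance between the group means. Windows of 150 bases were shared between *Ifit3* and *Ifit3b* for 18.6% and 16.0% of their transcripts, so reads may have been split between these copies or dropped.

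None of the 7 genes for ubiquitin, ISG15 and ADP-ribose enzymes and none of the 5 GTPase genes passed with all libraries. Of all tested genes, 25.5% were higher and 25.7% lower. The log2 fold changes of these 7 and 5 genes were between -0.13 and 0.27. Without GFP replicate 1, 4 of the 7 (*Trim25*, *Trim30a*, *Parp9*, *Dtx3l*) and 1 of the 5 (*Gbp2*) were lower, beside 25.3% of all tested genes. *Irgm1*, whose product acts on membranes around pathogens, had 411, 599 and 574 CPM in GFP and 682, 656 and 521 CPM in CRE, a log2 fold change of 0.23 (SE 0.13), and groups that overlapped. It was 0.08 without GFP replicate 1 and 0.34 without CRE replicate 3, neither of which passed, and it passed at 0.39 with library size alone (edgeR adjusted p of 0.0285). The chemokine *Ccl5* (ENSMUSG00000035042, chromosome 11, positions 83525778 to 83530518 of GRCm38, minus strand) had 1.87, 4.79 and 7.59 CPM in GFP and 10.3, 12.2 and 12.5 CPM in CRE. At this low level all CRE libraries were above all GFP libraries, with a log2 difference of 1.26 (SE 0.32) and an edgeR adjusted p of 0.00725. This difference was 0.90 without GFP replicate 1 and 1.78 without GFP replicate 3. *Cxcl10* differed by 1.08 (SE 0.46), which did not pass (edgeR adjusted p of 0.0732), and it was 0.64 without GFP replicate 1 (adjusted p of 0.0540). It passed without GFP replicate 2 (adjusted p of 0.0289) or CRE replicate 3 (0.0384), with library size alone (0.0389) and without the filter (0.0441), and did not without CRE replicate 1 (0.203), CRE replicate 2 (0.183) or GFP replicate 3 (0.109).

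**Figure D3:**
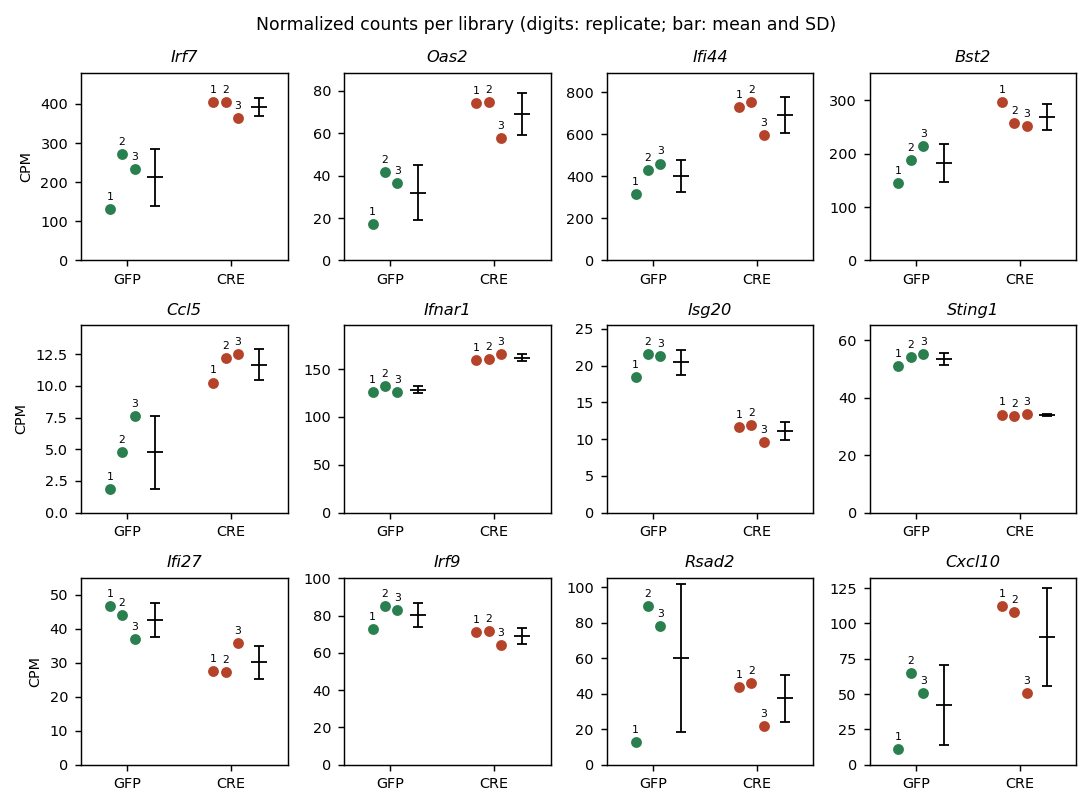
Normalized counts (CPM, vertical axis from 0) of 12 members in each library of GFP (green) and CRE (red), with the replicate number above each point and the mean and SD of the group beside it. The groups are apart in the panels from *Irf7* to *Irf9*, and in *Rsad2* and *Cxcl10* GFP replicate 1 and CRE replicate 3 are the lowest of their groups.

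The count of called members depended on GFP replicate 1. Without it, the count of members higher in CRE was 7, with 24.6% of all tested genes higher, and the count of lower members was 20, with 25.3% of all tested genes lower. GFP replicate 1 was the lowest GFP library for 48 of 51 members, so leaving it out raised the GFP mean of those members. It also narrowed the spread of GFP, and no fit left out both low libraries. All 13 calls made with every library were kept, and 14 further members passed as lower. These included *Rsad2* (log2 fold change of -1.17 without that library, -0.70 with it), *Mx1* (-1.12 and -0.66), *Oasl1* (-1.0 and -0.62), *Ifit1* (-0.81 and -0.47) and *Irf1* (-0.58 and -0.35). The others were *Tlr3*, *Ifit3b*, *Rtp4*, *Xaf1*, *Trim25*, *Trim30a*, *Parp9*, *Dtx3l* and *Gbp2*, and the median over the members moved to -0.22. Leaving out GFP replicate 2 instead gave *Rsad2* -0.31, *Mx1* -0.11, *Oasl1* -0.26, *Ifit1* -0.20 and *Irf1* -0.23, none of which passed.

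Leaving out CRE replicate 3 moved the members the other way. There were then 11 higher members, with 22.1% of all tested genes higher, and 4 lower, with 22.7% of all tested genes lower, and the median was 0.11. *Cxcl10* passed at 1.38, as did *Ifi203*, *Ifi35* and *Oas1a*, while *Dhx58* and *Irf9* no longer did. The members that passed with all libraries and in every leave-out were *Irf7*, *Oas2*, *Ifi44*, *Bst2*, *Ccl5* and *Ifnar1*, all higher, and *Isg20*, *Sting1*, *Ifi27* and *Ifnar2*, all lower.

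**Figure D4:**
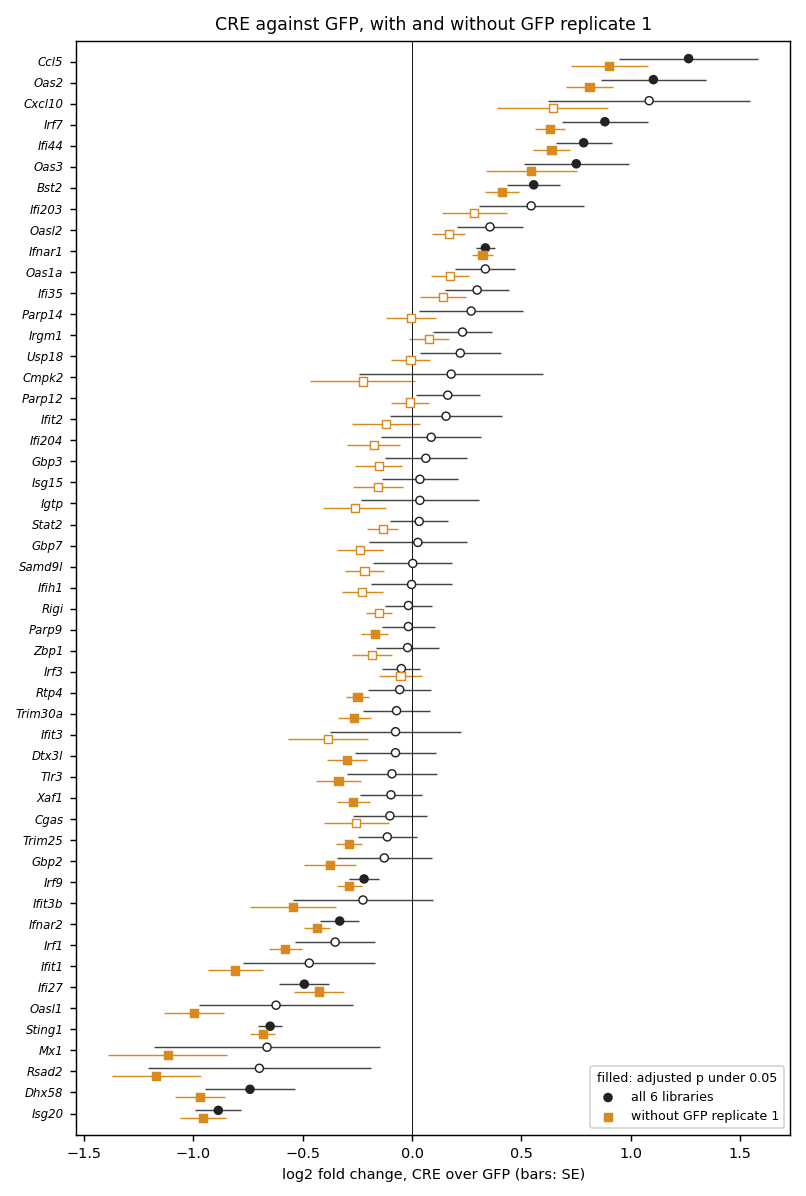
Log2 fold change of CRE over GFP with its SE for the 51 members, with all 6 libraries (black circles) and without GFP replicate 1 (orange squares). Filled symbols have an adjusted p under 0.05 in edgeR, and the orange symbols lie to the left of the black ones for most members, with 20 lower members in place of 6.

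The low values in both libraries were set beside the promoter motif. The 17 members with GAAANNGAAA had a median deviation of -0.93 log2 CPM in GFP replicate 1 (between -2.71 and -0.48) and of -0.53 in CRE replicate 3. The 22 tested members whose promoter lacked it had medians of -0.60 (between -2.0 and -0.01) and -0.28, so the ranges overlapped widely. Their median log2 fold changes between the groups were 0.04 and -0.03. TTCNNNGAA, the core of the gamma-activated site, was present before 8 of the 40 genes (20%) and before 8.13% of all genes of the table. Members with that motif had a median of -0.70 in GFP replicate 1, and those without it -0.75.

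Other genes of the pathway were taken from separate lists. Of 23 tested genes for signalling between sensors, interferons and STATs, 9 were higher and 6 lower, beside 25.5% and 25.7% of all tested genes, so the lower count was near that share. The lower count was between 1 and 7 when each library was left out in turn, beside 22.1% to 25.3% of all tested genes. It was 1 without GFP replicate 2, GFP replicate 3 or CRE replicate 1, and 3 without CRE replicate 2 or CRE replicate 3. It was 2 with library size alone and 1 on log2(FPKM + 1) values, beside 16.2% and 14.7% of all tested genes. The kinase gene *Tyk2*, which serves IFNAR1, differed by 0.71 on the log2 scale (edgeR adjusted p of 4.31e-05), *Traf6* by 0.49 and *Mavs*, the adaptor of RIG-I and MDA5, by 0.41. *Tlr2* differed by -0.53 and *Socs1*, a feedback inhibitor of JAK kinases, by -1.05 with overlapping groups, which did not pass without GFP replicate 2, GFP replicate 3 or CRE replicate 1. *Tlr7* differed by -1.47 at 17 counts or fewer per library, by -2.51 without CRE replicate 3 and by -0.98 without CRE replicate 1, and of the 6 leave-outs it passed in those of GFP replicate 1 and CRE replicate 3 alone. GFP replicate 1 was the lowest GFP library for 13 of these 23 genes, beside 34.7% of all tested genes.

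A list of 48 further tested interferon-stimulated genes was read beside the members. GFP replicate 1 was the lowest GFP library for 46 of them, with a median deviation of -0.76 log2 CPM, and CRE replicate 3 was the lowest CRE library for 42. With all libraries, 7 were higher, among them *Ifi27l2a* (0.71), *Tor3a* (0.55, with overlapping groups) and *Slfn2* (0.48), and only *Ifitm2* was lower (-0.46), where 25.5% of all tested genes were higher and 25.7% lower. The higher count was 3 in DESeq2, 16 with library size alone and 10 on log2(FPKM + 1) values. Of all tested genes 21.4%, 43.0% and 38.1% were higher in those settings. Without GFP replicate 1, 7 were higher and 16 lower, beside 24.6% and 25.3% of all tested genes. Without CRE replicate 1 or CRE replicate 2 only 2 were higher, beside 22.1% and 21.6%, and *Tor3a* was among those that did not pass in either. *Slfn2* did not pass without any one of the CRE libraries, nor *Ifi27l2a* without CRE replicate 1, and without GFP replicate 1 *Tor3a* was 0.35 and *Slfn2* 0.25. Of 15 genes of class I antigen presentation, 4 were higher, a share near the 25.5% of all tested genes, and 2 were lower, beside 25.7%. The heavy chain genes *H2-Q4*, *H2-D1* and *H2-K1* differed by 0.83, 0.83 and 0.70, the immunoproteasome subunit gene *Psmb10* by -0.40 and the activator gene *Psme1* by -0.38. The lower count was 4 without GFP replicate 1, beside 25.3% of all tested genes. It was 0 without GFP replicate 3 or CRE replicate 3, beside 22.3% and 22.7% of all tested genes. There *Psmb10* had adjusted p of 0.0752 and 0.0713 and *Psme1* of 0.0682 and 0.0635 in edgeR. The lower count was 0 with library size alone and on log2(FPKM + 1) values too, beside 16.2% and 14.7% of all tested genes. GFP replicate 1 was the lowest GFP library for 14 of these 15 genes. *H2* genes are closely related copies, so their counts are uncertain.

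Markers of other cells were measured beside these values. The 10 macrophage and monocyte markers summed to 34.0, 35.5 and 36.6 CPM in GFP replicates 1, 2 and 3 and to 23.1, 25.0 and 21.0 CPM in CRE. Of the 5 tested, 2 were lower, beside 25.7% of all tested genes, and *Ptprc*, the pan-leukocyte marker, had at most 0.564 CPM. The 9 lymphocyte and plasmacytoid dendritic cell markers summed to 2.09 to 2.65 CPM in GFP and 4.35 to 5.81 CPM in CRE, nearly all from *Bst1*, with *Siglech* at 0 in every library. Only 1 of these 9 was tested, and it was higher, beside 25.5% of all tested genes. The 7 endothelial markers summed to 411 to 455 CPM in GFP and 184 to 212 CPM in CRE, with 6 of 7 lower, beside 25.7% of all tested genes. The 6 smooth muscle and pericyte markers summed to 72.6 to 79.9 CPM in GFP and 37.9 to 41.0 CPM in CRE. Of these, 4 were lower, beside the same 25.7%. The 7 cardiomyocyte markers summed to at most 1.02 CPM. The part of these cells in the differences between CRE and GFP was not tested.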

How the data were processed

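Bulk RNA-seq of 6 libraries was analysed, grouped as GFP and CRE by the sample titles. Reads were trimmed (Trimmomatic), mapped to GRCm38 (HISAT2), summed by gene (HTSeq-count) and converted to FPKM (Cufflinks) by the authors, as their methods state. Tool versions and the strand setting are not given in the sources used here, which leaves overlapping and antisense genes uncertain. RNA and library kits differ between the labels and the paper's methods. The authors deposited raw counts and FPKM per gene and library. Their deposited fold change, p-value and false discovery rate columns compare CRE with GFP and were not used. Member genes and lists were chosen with earlier results of these data known.

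Counts were scaled by TMM and tested with edgeR 4.0.16 in R 4.3.3 (two-sided quasi-likelihood test, Benjamini-Hochberg adjustment over the 12862 genes kept by filterByExpr with a minimum count of 10 and a minimum total of 15). SE was derived from the fold change and the F value. CPM are counts scaled to the effective library size. Deviations and SDs use log2 CPM with a prior count of 2, and genes of similar level are the 100 tested genes ranked on each side by mean. Simulated data gave each gene the spread usual for its level and changed 200 of 12862 genes by 1.5-fold up or down. The test recovered 78.5% of those, with 3.29% of calls on unchanged genes. The members spread more widely between replicates than genes of similar level, so the recovery for them was not measured. Full values are given for called members whose groups do not overlap, the 6 highest in FPKM, the 5 of widest within-group SD, and *Ifnb1*, *Ifnar1*, *Ifnar2* and *Tet3*, with up to 6 called genes of each pathway list. Values of other members were chosen after they were seen. Coordinates are those of GENCODE M21, and promoters those of RefSeq on GRCm38.p6. Shared windows are exact matches of 150 bases between the longest transcript of a member and transcripts of other genes. Same-numbered GFP and CRE libraries had correlations of their deviations from the group means of 0.046, 0.180 and -0.018. Libraries of different numbers had between -0.116 and 0.071, so the 0.180 of replicate 2 was the highest. The numbers were not found to pair the samples, but at 3 libraries a group these values cannot exclude a pairing. Counts of libraries of the same group differed by more than sampling noise. The alternatives were RLE, upper-quartile and library size scaling, other filters, DESeq2 1.42.0, limma-voom and limma 3.58.1 on log2(FPKM + 1), a block for the replicate number, and leaving out each library. For the deviations, library size alone and log2(FPKM + 1) were added after seeing the data. Values of some single genes are not reported here.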

Additional observations from a re-analysis of the deposited data

How the results depend on the processing

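The 7 higher members, and *Isg20*, *Sting1* and *Ifi27* among the lower, passed under RLE, upper-quartile and library size scaling, both other filters, DESeq2, limma-voom and log2(FPKM + 1). Library size alone moved the median of all genes to 0.17 from 0.01 on the log2 scale and gave 13 higher and 4 lower members in place of 7 and 6, and 35 higher and 3 lower pathway genes in place of 20 and 9, while calls over all tested genes went to 43.0% higher and 16.2% lower from 25.5% and 25.7%. On log2(FPKM + 1) values 3 members and 2 pathway genes were lower. *Ifit3* changed sign in both, to 0.086 and 0.14. *Irf9* did not pass in either, nor without GFP replicate 2, GFP replicate 3 or CRE replicate 3. *Dhx58* did not pass on FPKM values or without GFP replicate 3 or CRE replicate 3, and *Oas3* did not pass without CRE replicate 1 or 2. When each library was left out in turn, between 6 and 11 members were higher and between 4 and 20 lower, beside 21.0% to 24.6% and 22.1% to 25.3% of all tested genes, and between 13 and 22 pathway genes were higher and between 2 and 27 lower. *Ifit3* ranged from -0.38 to 0.16, *Isg15* from -0.16 to 0.21, *Cmpk2* from -0.23 to 0.53, and the median SD within GFP from 0.070 to 0.544. The cause was not tested. With the replicate block, 8 members were higher and 6 lower, beside 25.3% and 26.2% of all tested genes, *Oasl2* being the addition, and the numbers were not found to pair the samples. In DESeq2, 15 pathway genes were higher and 8 lower, beside 21.4% and 23.5% of all tested genes. The median deviation of GFP replicate 1 was -0.77 when scaled by library size and -0.74 from log2(FPKM + 1), and that of CRE replicate 3 was -0.36 and -0.34. At 3 libraries a group, each statement on a low library rests on that library alone, and at counts near the floor, as for *Ifnb1*, a difference was not detectable.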
